A study of Caenorhabditis elegans with 12 samples.

Results

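The genes *meic-1* and *rpa-2* were examined in a ChIP-seq experiment on the transcription factor KLF-1, chosen by the called peaks themselves: a KLF-1-YFP peak lay next to each of them in every library of mitochondrial mutants, while the WT lists had none there. Of 46926 genes in the RefSeq table of assembly WBcel235, these are the 2 that were named for this purpose. Their peaks were found as any peak within 2000 bp of the gene span in the deposited lists, which gave 6 of 3116 peaks and 2 of 1218 merged regions. The difference between the strains chose the genes, so it is described below and not tested.

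The mutants carried isp-1(qm150), in the iron-sulphur protein of respiratory complex III, and ctb-1(qm189), in the cytochrome b of the same complex, and the WT animals were N2. Both strains carried the integrated transgene Is[pvha-6::klf-1-yfp], which makes the tagged KLF-1 from the intestinal *vha-6* promoter on top of the animals' own *klf-1*, and both were fed HT115 bacteria with the L4440 plasmid. Whole animals were collected on day 1 of adulthood, and DNA gives no marker expression by which the tissue behind the pulled-down DNA could be checked. Each strain had 3 ChIP libraries, pulled down with GFP-Trap beads, and 3 input libraries, 12 libraries in all, and animals lacking the tag were not among the ChIP samples. Whether the 3 libraries of a strain were separate cultures is not stated. By the Reporting Summary the ChIP libraries of the mutants were all deeper in unique reads than those of WT, so strain and depth cannot be told apart at a site with peaks of the mutants only.

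KLF proteins are zinc-finger transcription factors that bind GC-rich and CACCC-type elements in promoters. *rpa-2* encodes a subunit of replication protein A, the complex that coats single-stranded DNA during replication, recombination and repair, and the deposited lists annotate it with these processes and with the nucleus. In *C. elegans* the intestinal cells do not divide after hatching but copy their DNA again during larval growth, and the dividing cells of the adult are those of the germ line. For *meic-1* (Y39A1A.9) neither the lists nor the gene table describe a product, so no role is given for it here, and only the *rpa-2* side of a grouping as chromosome and replication genes is backed by an annotation.

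All 3 *isp-1;ctb-1* libraries had a peak on chromosome III next to *meic-1* (WBcel235). The peak ran from 10633945 to 10634431 in *isp-1;ctb-1* replicate 1, from 10634065 to 10634418 in replicate 2 and from 10634032 to 10634446 in replicate 3. Its widths were 487, 354 and 415 bp. The peak of replicate 2 lay inside the other two, so that the 3 libraries shared a core of 354 bp in a merged region of 502 bp. The RefSeq span of *meic-1* runs from 10630070 to 10633501, and the peaks lay beyond that end of the gene, 444, 564 and 531 bp away. None of them touched the gene.

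The core of the peaks covered another gene. Y39A1A.28, a non-coding RNA gene of 209 bp from 10634173 to 10634381, lay whole inside the peak of each of the 3 libraries, with 108 bp of the core before it and 37 bp after it. The nearest protein-coding gene apart from *meic-1* was Y39A1A.10, which lies within the *meic-1* span and 861 bp from the region. On the other side the next protein-coding gene, Y39A1A.27, was 4525 bp away. The deposited lists assigned no gene to the peak in any library. In the lists a peak is paired with a gene only where it lies over the gene (658 of 2777 pairs) or upstream of it (2119 pairs), with no pair downstream. No source used here gives the strand of *meic-1*, so whether the region is upstream or downstream of it was not determined.

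All 3 *isp-1;ctb-1* libraries also had a peak on chromosome I at *rpa-2* (M04F3.1, WBGene00019767). It ran from 4769209 to 4769851 in *isp-1;ctb-1* replicate 1, from 4769528 to 4769746 in replicate 2 and from 4769510 to 4769861 in replicate 3. The widths of 643, 219 and 352 bp varied more than those at *meic-1*, at 404.7 ± 217 bp (SD, n = 3) against 418.7 ± 66.6 bp (SD, n = 3). The narrow peak of replicate 2 again lay inside the other two and formed a core of 219 bp in a merged region of 653 bp.

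Whether this peak lay on the gene depended on the annotation. In the deposited lists, which use Ensembl release 93, *rpa-2* is on the plus strand from 4769694 to 4771358, and 158, 53 and 168 bases of the 3 peaks lay over its first part. In RefSeq the gene begins at 4770292, 598 bp further in, with the same end, and the peaks lay 441, 546 and 431 bp upstream of it. Such a gap is uncommon. Of 829 genes of the lists matched to RefSeq by symbol, 26 (3.14%) had a RefSeq 5′ end at least as far inside the listed span, and the median difference was 0 bp. By either annotation the peaks lay at or just upstream of the annotated start.

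The lists assigned the *rpa-2* peak to another gene as well in each library. This was M04F3.3, *kin-35* in RefSeq, on the minus strand, and the peaks lay 3896 to 4215 bp upstream of it, beyond the 2000 bp that the methods state. Genes closer to the region were not assigned. These were the long non-coding RNA gene M04F3.7 at 146 bp, M04F3.4 at 1486 bp, which overlaps the end of *rpa-2*, and the pseudogene M04F3.2 at 1552 bp. M04F3.5, on the minus strand and 3958 bp away, would have had the peak downstream and was not assigned either.

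**Figure D1:**
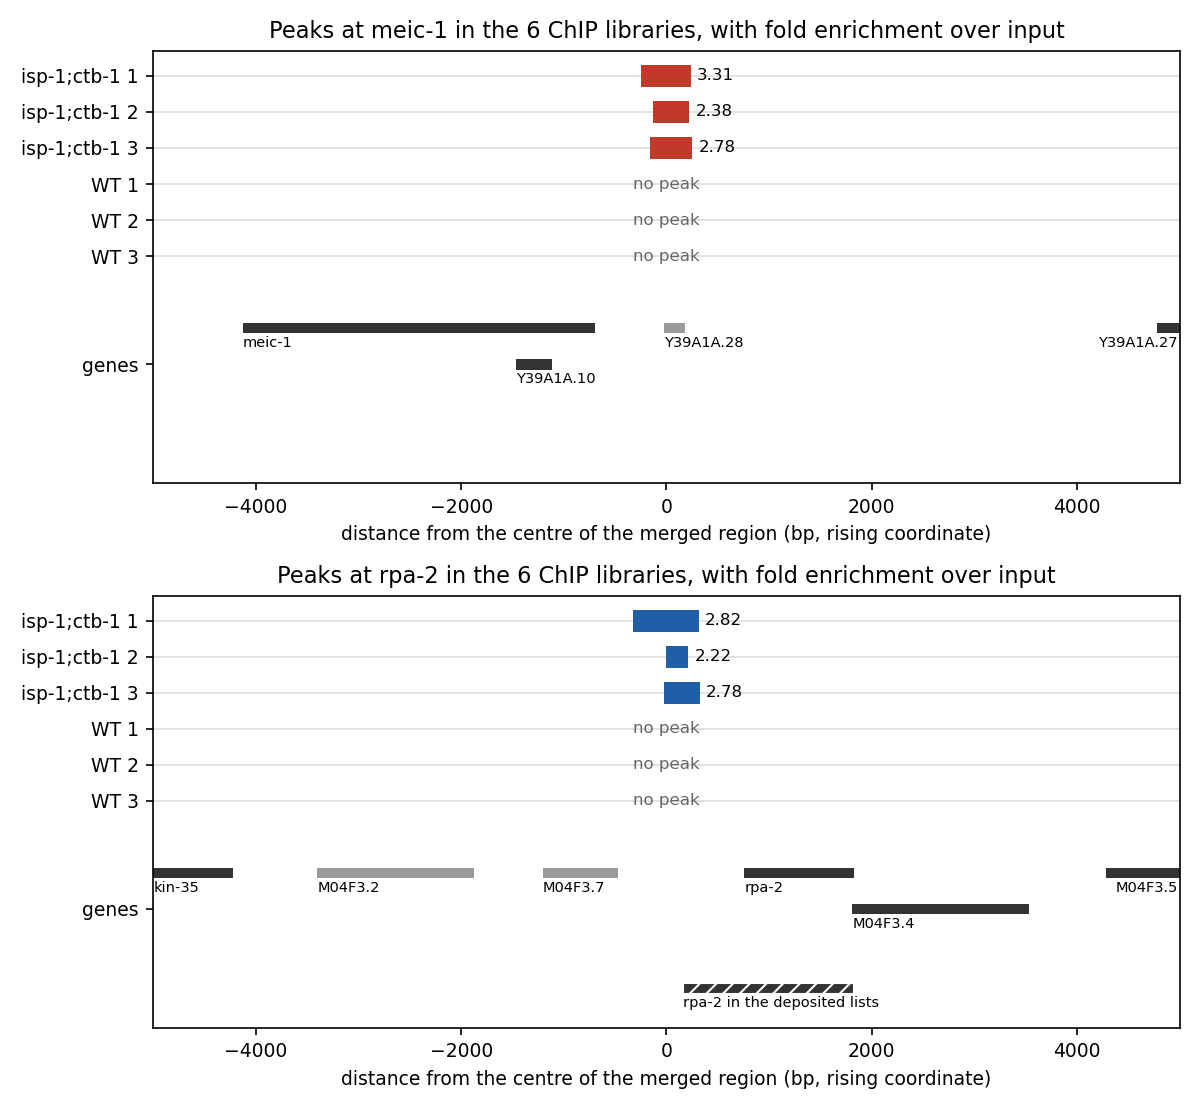
Peaks of the 6 ChIP libraries at *meic-1* (upper panel) and *rpa-2* (lower panel). The x axis is the distance in bp from the centre of the merged region, each row is a library, the number beside a bar is its fold enrichment, dark bars are protein-coding genes, grey bars other genes, and the hatched bar is the *rpa-2* span of the deposited lists. The 3 *isp-1;ctb-1* peaks at each gene overlap each other, the *meic-1* peaks cover Y39A1A.28, and the WT rows are empty.

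The fold enrichment over input placed both peaks near the top of the mutant lists. At *meic-1* it was 3.31, 2.38 and 2.78 in *isp-1;ctb-1* replicates 1, 2 and 3, with a mean of 2.82 ± 0.46 (SD, n = 3). The peak ranked 3 of 620, 10 of 386 and 10 of 565 in these lists. At *rpa-2* the fold enrichment was 2.82, 2.22 and 2.78, with a mean of 2.61 ± 0.33 (SD, n = 3), and the ranks were 12, 15 and 10. Both genes were lowest in replicate 2, whose list also had the lowest median fold enrichment, 1.53 against 1.94 in replicate 1 and 1.73 in replicate 3. Fold enrichments are the authors' values and depend on the library and its input, so they were read within a list.

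The order of the pair was not the same in each list. *meic-1* was above *rpa-2* in replicates 1 and 2 and equal to it in replicate 3, where both had 2.78 and shared rank 10. The fold enrichments of the mutant lists moved in steps of 0.0229 to 0.0284. Within 0.02 of a step, 28.5 to 64.2% of the values of a list lay on a whole step. Even spacing would put 4% there for a step fixed beforehand. Here the step of each list was picked to hold the most values, so 4% is not a baseline for these shares. No step is given for the WT lists. All 6 values of the pair lay on a whole step. Counted in these steps, *meic-1* stood 20 steps above *rpa-2* in replicate 1, 7 in replicate 2 and 0 in replicate 3. Ties in rank are therefore frequent, and the *rpa-2* value was shared by 2, 3 and 2 peaks of the 3 lists.

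**Figure D2:**
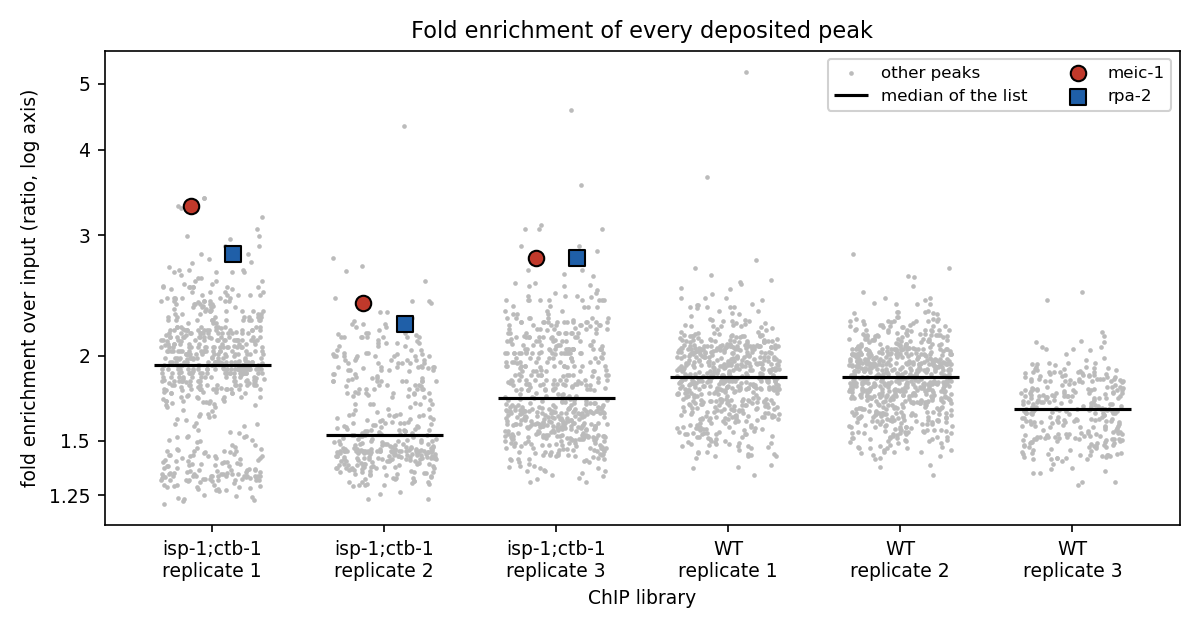
Fold enrichment over input (log axis) of every deposited peak in each ChIP library, with the median of each list as a line. The *meic-1* and *rpa-2* peaks, the large symbols, lie between 2.22 and 3.31 in the mutant lists, above the medians of 1.53 to 1.94, and the WT lists hold neither.

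In width the peaks lay within the ordinary range of the lists. By width *meic-1* ranked 125, 207 and 236 in the 3 lists and *rpa-2* ranked 75, 345 and 291, and the medians of these lists were 317, 372 and 358 bp. The widest peak of each mutant list, at 12789 to 13090 bp, lay over the mtDNA. The fold enrichment of the mtDNA peak was 1.33, 1.45 and 1.66 in *isp-1;ctb-1* replicates 1, 2 and 3 and 2.06, 2.01 and 1.89 in WT replicates 1, 2 and 3. The fold enrichment at the pair in the mutants was 1.53 to 2.48 times that of the mtDNA peak in the same list. The mtDNA peak ranked only 567, 244 and 328 in these lists, below the median fold enrichment of each. Most other peaks were therefore above it too.

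**Figure D3:**
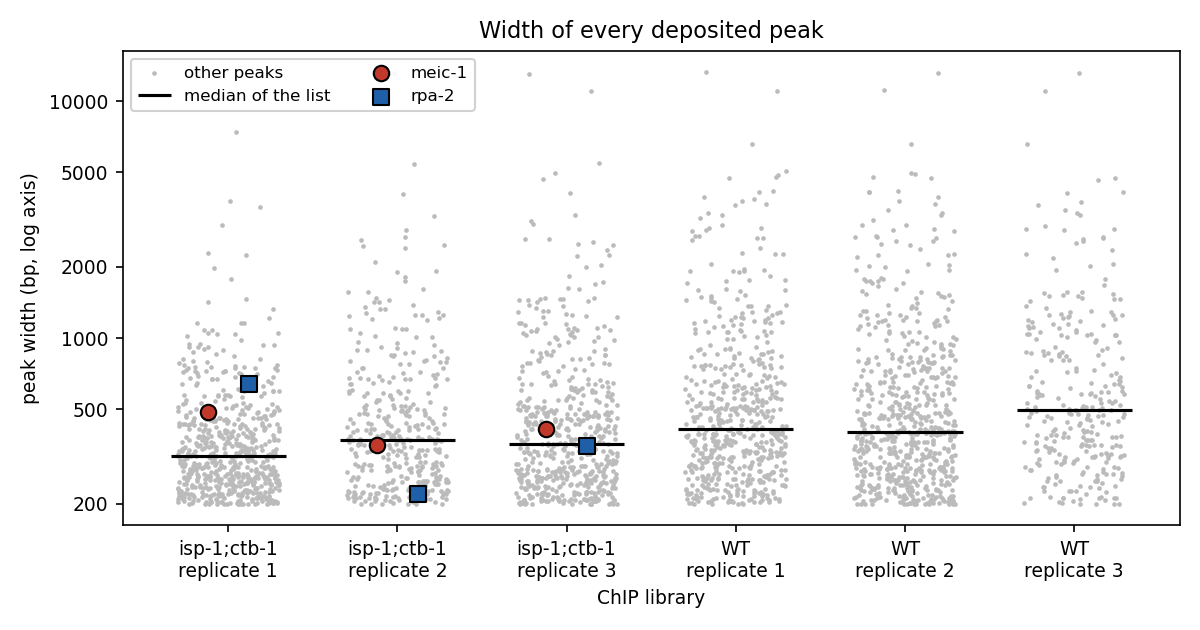
Width in bp (log axis) of every deposited peak in each ChIP library, with the median of each list as a line. The *meic-1* peaks of 354 to 487 bp lie close to the medians of 317 to 372 bp, and the *rpa-2* peaks of 219 to 643 bp lie on both sides of them.

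No WT list had a peak within 2000 bp of either gene, nor within 5000 bp. For *meic-1* the nearest WT peak was 125623 bp from the gene, and the next *isp-1;ctb-1* peak beyond the 3 described was 73579 bp away. For *rpa-2* the nearest WT peak was 68631 bp from the gene and the next *isp-1;ctb-1* peak 18615 bp. Both regions were therefore isolated in the lists, and the distance limit of 2000 bp had no peak near it, with the farthest peak inside at 564 bp for *meic-1* and 546 bp for *rpa-2*. The lists hold called peaks only, the lowest fold enrichment in a WT list being 1.29 to 1.34, so they give no WT value at either site.

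The deposited table that compares the strains gives a mean for both conditions at both regions. Its columns do not name the strains, so the conditions are given by number, and their normalization is not stated in the sources used here. At the *meic-1* region, for which the table lists no gene, the mean was 305.1 in condition 2 and 178.6 in condition 1, a ratio of 1.71. At the *rpa-2* region it was 338.5 in condition 2 and 235.1 in condition 1, a ratio of 1.44. The table gives no background level, so these means do not show whether KLF-1 was bound in either condition. Over the whole table condition 2 was higher in 141 of 287 regions (49.1%), and the ratio of *meic-1* ranked 6 and that of *rpa-2* 48.

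The table's regions that were built from *isp-1;ctb-1* peaks only were higher in condition 2 in 63 of 63 cases, and those from WT peaks only were higher in condition 1 in 35 of 40. Of the 17 regions built from peaks of all 3 mutant libraries and no WT library, 2 had a ratio above that of *meic-1* and 11 had one above that of *rpa-2*, in a range from 1.31 to 2.22 with a median of 1.51. By this measure *meic-1* stood in the upper part of its kind and *rpa-2* below the middle. Where both strains had peaks, regions with a low mean often had a ratio above 1. Of the 28 such regions with a condition 1 mean under 400, 25 were higher in condition 2, with a median ratio of 1.32 and a highest of 1.61. Most of these 28 had peaks in more mutant than WT libraries, and none had peaks in more WT libraries. Regions with WT peaks only and a condition 1 mean under 400 went the other way. The most extreme had 276.5 in condition 1 and 223.9 in condition 2, a ratio of 0.81. The others had ratios closer to 1, and the closest had 133.31 in condition 1 and 131.25 in condition 2. The ratio of *meic-1* was above all 28, and 5 of the 28 had a ratio at or above that of *rpa-2*. The limit of 400 was chosen after the values were seen. Above it, a region with peaks in 3 mutant libraries and 1 WT library had the highest ratio of all 287 regions, 2.53. Its mean was 509.5 in condition 1 and 1289.7 in condition 2. The pair was chosen for having no WT peak, whereas all 28 had one, so this comparison is not independent of that choice. The table gives no value per library, so these ratios have no replicate error.

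**Figure D4:**
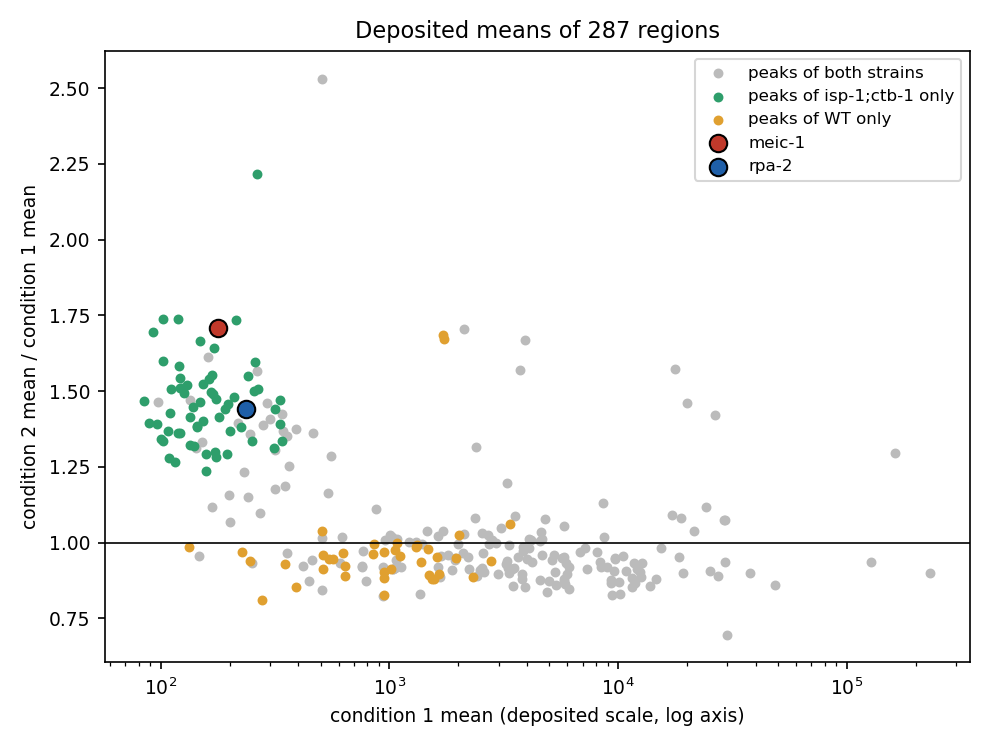
Ratio of the condition 2 mean to the condition 1 mean against the condition 1 mean (log axis, deposited scale) for 287 regions, coloured by the strain whose peaks built the region. The *meic-1* region (1.71) and the *rpa-2* region (1.44) lie among those with *isp-1;ctb-1* peaks only.

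The pattern that chose the pair, a peak in each mutant library and none in WT, was shared by 60 of the 1218 merged regions (4.93%), and 111 of 19983 protein-coding genes (0.555%) lay within 2000 bp of such a region. Without *isp-1;ctb-1* replicate 2, which has the shortest mutant list, the number of regions was 129. Ordered by the mean of their ranks, as a percentage of each list, the *meic-1* region stood at position 2, at 1.61%, and the *rpa-2* region at position 4, at 2.53%, where the median of the 60 was 17%. The pair was named with earlier results of these data known. Its high standing among the 60 may be part of that choice and is only described. The regions closest to *meic-1* and *rpa-2* in this order lay at *xbp-1* and *dnj-16* (1.24%) and at *ztf-22* and Y48C3A.5 (1.75%). Next came those at *larp-1* and *wip-1* (4.45%) and at *rpl-18A* and *cyc-2.1* (4.52%). *xbp-1* encodes a regulator of the endoplasmic reticulum stress response and *rpl-18A* a ribosomal protein.

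**Figure D5:**
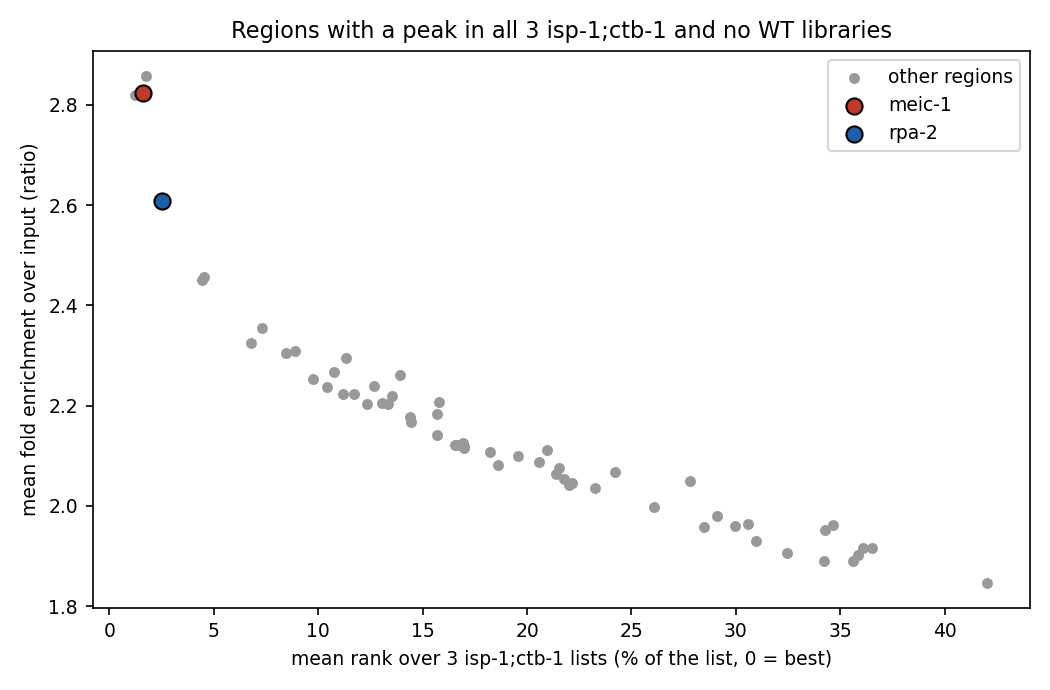
Mean fold enrichment against mean rank, as a percentage of the list, over the 3 *isp-1;ctb-1* lists for the 60 regions with a peak in all of them and in no WT list. The *meic-1* region (2.82, 1.61%) and the *rpa-2* region (2.61, 2.53%) lie at the upper left, apart from the median of 2.12 and 17%. Both were named with earlier results of these data known.

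The peaks at *meic-1* agreed more closely in position than those at *rpa-2*. The mean Jaccard index of the 3 pairs of libraries, the shared part of the bases under 2 peaks, was 0.792 at *meic-1* and 0.495 at *rpa-2*. Of the 57 regions of this kind with 1 peak in each mutant library, 6 had an index at least as high as *meic-1*, itself included, and 52 had one at least as high as *rpa-2*, with a median of 0.651. The core of 354 bp at *meic-1* was above the median of 232 bp and that of 219 bp at *rpa-2* below it. Of the 60 regions, 26 lay over a protein-coding gene in RefSeq, 31 lay off such a gene but within 2000 bp, as at both genes here, and 3 lay farther away, with a median distance of 87 bp against 444 bp at *meic-1* and 431 bp at *rpa-2*. An annotated non-coding RNA gene of the RefSeq class ncRNA, such as Y39A1A.28, lay under 15 of the 60 (25%) and under 115 of all 1218 regions (9.44%), a difference that was not tested. The 60 regions were also longer, with a median of 490 bp against 363.5 bp for all regions. A merged region spans all of its peaks, so a greater length follows in part from requiring peaks in 3 libraries.

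At the threshold of the Reporting Summary, a fold enrichment over 1.5 with a p under 0.05, the pair parted. The *rpa-2* peaks carried a deposited p of 0.00696, 0.0606 and 0.0149, so that replicates 1 and 3 passed and replicate 2 did not. The *meic-1* peaks carried none, because the lists leave the p blank where no gene is assigned, and none of the 3 passed although each had a fold enrichment above 2. What this p tests is not stated in the sources used here.

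Other genes of DNA replication and of chromosomes were compared with the regions that at least 2 of 3 libraries of a strain held. Of 158 such genes from 3 lists, 8 (5.06%) had a region of *isp-1;ctb-1* within 2000 bp and 1 (0.633%) had a region of WT, where 2.45% and 1.3% of all protein-coding genes did. Without *meic-1* and *rpa-2*, which were chosen for their peaks, there were 6 of 156 (3.85%) in *isp-1;ctb-1*. Each of the 8 had a region with peaks in at least 2 mutant libraries, and 4 had one in all 3. These 4 were *meic-1* and *rpa-2* themselves, *brc-1*, and *csc-1*, whose region also had a peak in all 3 WT libraries. With a library left out, both remaining libraries had to hold the region, so a lower count follows from the rule. The count was then 4 without *isp-1;ctb-1* replicate 1, 7 without replicate 2 and 5 without replicate 3. The share of all protein-coding genes under that rule is not given here. The lists were chosen with earlier results of these data known, and the difference from the background was not tested. With a peak in any library, 14 (8.86%) lay near one in *isp-1;ctb-1* and 4 (2.53%) in WT, against 5.33% and 2.37% of all protein-coding genes.

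The replication list had 51 genes that were found in the table. Of these, *rpa-2* and *tim-1* (3.92%) lay near a region of the mutants and none near a region of WT. Without *rpa-2* it was 1 of 50 (2%) in the mutants. Of all protein-coding genes, 2.45% lay near a region of the mutants and 1.3% near a region of WT. *tim-1*, the worm homologue of the replication fork factor Timeless, had a peak 98 bp away with fold enrichments of 2.16 and 2.01 in *isp-1;ctb-1* replicates 1 and 3. Neither *rpa-1* nor *rpa-4*, which encode other replication protein A subunits, had a peak within 2000 bp in any library. A peak of 1 *isp-1;ctb-1* library lay near *pcn-1*, the sliding clamp PCNA (96 bp, fold enrichment 2.43), near *rfc-4*, a subunit of its loader (8 bp, 2.16), near *orc-3* of the origin recognition complex (1056 bp, 1.98), and near *sld-2* (786 bp, 1.91), which acts when replication starts. *psf-3*, a subunit of the GINS complex, had 2 such peaks, at 37 bp in replicate 3 (1.90) and at 1381 bp in replicate 1 (2.08). In WT, 1 library had a peak 1989 bp from *rfc-2* (1.78). The ranks of these single peaks, from 53 at *pcn-1* to 429 at *rfc-2*, were far below those at *rpa-2*.

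The meiotic list had 52 genes, and *meic-1* was placed on it by its symbol. Of these, *meic-1*, *brc-1* and *xnd-1* (5.77%) lay near a region of the mutants and none near a region held by WT. Without *meic-1* it was 2 of 51 (3.92%) in the mutants. The shares of all protein-coding genes were 2.45% in the mutants and 1.3% in WT. *brc-1*, the worm orthologue of BRCA1 in DNA repair, was the gene of these lists most like the pair in its ranks. A region inside its span, on chromosome III from 3862907 to 3863481, had fold enrichments of 2.99, 2.41 and 2.44 in *isp-1;ctb-1* replicates 1, 2 and 3, at ranks 7, 8 and 26, but it also had a peak in WT replicate 1, with 2.10 at rank 78. *xnd-1*, which shapes the distribution of meiotic crossovers, had a peak 539 bp away in *isp-1;ctb-1* replicates 1 and 3 (1.91 and 2.01).

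Of the 55 genes on the list of chromosome segregation, *csc-1*, *czw-1* and *knl-3* (5.45%) lay near a region of the mutants. Only *csc-1* (1.82%) lay near a region of WT. Against these stood 2.45% and 1.3% of all protein-coding genes, and the differences were not tested. The region 703 bp from *csc-1*, a subunit of the chromosomal passenger complex, had a peak in all 6 libraries, with fold enrichments of 1.56, 1.57 and 1.72 in *isp-1;ctb-1* and of 1.90, 1.93 and 1.78 in WT. Those of the mutants ranked 485, 173 and 289 and those of WT 261, 253 and 87, so that this region stood lower in the lists than *meic-1* and *rpa-2* in each mutant library. *knl-3*, of the kinetochore, had a region 1199 bp away in replicates 1 and 3 (2.13 and 2.01), and *czw-1*, the homologue of the kinetochore protein ZW10, had one 424 bp away in replicates 1 and 2 (1.89 and 1.81).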

How the data were processed

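The authors ran the QuickNGS pipeline, in which reads were aligned with BWA to the genome of Ensembl release 93, quality was checked with FastQC 0.10.1 and peaks were called with MACS2 2.0.10, with the matching input as control for every ChIP library, unpooled. The deposited lists hold a fold enrichment, a ratio to input, and the deposited p-value is blank for peaks without a gene. The deposited table of the comparison holds a mean per condition, treated as a score of unknown scale, and its fold change and p columns, the authors' own comparison, were not used. No file gives reads per peak, so counting error is unknown. The Reporting Summary's depths were used in words only.

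Every deposited peak was used. Peaks sharing at least 1 bp were merged, a strain held a region with peaks in at least 2 of 3 libraries, and genes were taken within 2000 bp from RefSeq (WBcel235, 158 of 159 listed genes matched). Distances are differences of coordinates. Ranks run from the highest fold enrichment, ties sharing the best rank. Members, lists and regions named were chosen with earlier results of these data known: the pair, genes at their peaks, listed genes near a region and the 5 regions nearest in mean rank to each. List genes with a peak in 1 library only, the steps of the fold enrichment, the limit of 400 and the ncRNA count were chosen after the values were seen. No test was run. Interval functions were tested on simulated peaks. Alternatives were the distance, the fold enrichment and p required, the overlap, the libraries required and each library left out. Python 3.11.15, numpy 2.4.6, pandas 2.3.3 and matplotlib 3.10.9 were used.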

Additional observations from a re-analysis of the deposited data

How the results depend on the processing

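Of 48 alternative settings over 9 results, 36 left a value within 1 SD or within 1.5 times and 12 did not. Within 500 bp of *meic-1* a peak was left in 1 mutant library, and 0 were left at a fold enrichment over 1.5 with p under 0.05, where the blank p decides. The number of regions with a peak in all mutant libraries and in no WT library was 19 at a fold enrichment over 2 and 3 with the p as well, and 60 to 129 with each library left out in turn. Of the listed genes, *isp-1;ctb-1* regions met 14 within 5000 bp, 14 with a peak in 1 library and 4 with all 3 libraries required, and 4 to 7 with a library left out. WT regions met 2 within 5000 bp, 4 with a peak in 1 library, and 1 with any library left out. With a peak in 1 library, 5.33% of all protein-coding genes were met in *isp-1;ctb-1* and 2.37% in WT. For the other settings the share of all protein-coding genes is not given here, so these counts have no background. Mean fold enrichment ran from 2.58 to 3.04 at *meic-1* and from 2.50 to 2.80 at *rpa-2* with a library left out. With the *rpa-2* span of the deposited lists, an alternative added after seeing the data, 3 libraries had a peak. Among peaks with an assigned gene *meic-1* has no rank. The search for KLF elements in promoters was not run, because no sequence was used here. No paired analysis was possible because no result comes from a test. Strain and depth cannot be told apart, and the lists give no value where no peak was called.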

Other observations

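Regions over an annotated ncRNA gene were 15 of 60 (25%) where all mutant libraries and no WT library had a peak, 4 of 38 (10.5%) where all WT libraries and no mutant library had one, and 3 of 86 (3.49%) where all 6 libraries had one. The median lengths of these regions were 490, 492 and 1586 bp. No test was run between these shares, and Y39A1A.28 next to *meic-1* is 1 of the 15.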
